A study of Mus musculus with 12 samples.

Results

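The Akr1c genes of the mouse encode aldo-keto reductases and lie side by side in one cluster on chromosome 13. The family was described here as 8 genes of the 35275 in the deposited table: Akr1c6, Akr1c12, Akr1c13, Akr1c14, Akr1c18, Akr1c19, Akr1c20 and Akr1c21. Each was found by matching the table's Ensembl identifier to its symbol, and each was followed through all 12 libraries. The family was chosen by measured values, the FPKM of treated against untreated knockout cells, in which Akr1c12 and Akr1c19 stood among the genes with the highest rise in earlier results of these data. Differences that involve the knockout are therefore given for the 8 genes as a description with no test, and the effect of the agonist in wild-type cells is tested.

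RNA was measured in primary hematopoietic stem cells of C57BL/6 mice, isolated by flow cytometry, in 4 groups of 3 libraries. The untreated wild-type group carried intact Thpo (Thpo+/+), the gene of thrombopoietin, and the untreated knockout group lacked it (Thpo-/-). A further wild-type and a further knockout group received Romiplostim, a drug that acts as an agonist in place of thrombopoietin, intravenously at 100 µg/kg per day over 10 days. The control animals received PBS according to the protocol, while the label of both control groups reads untreated. The knockout lacks the ligand in the whole animal, and the sources used here give no ages and no cell gate. The labels do not say that the 3 libraries of a group came from separate animals, so p-values measure the spread between these libraries, which may be partly technical. Within each wild-type group the libraries differed in RNA of Xist and of Y-linked genes, so they did not all come from the same animal. The design text puts each group on a run of its own, so run and group cannot be told apart.

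Aldo-keto reductases use NADPH or NADH to turn aldehydes and ketones into alcohols, and many also run the reaction in reverse. The Akr1c enzymes act on steroids, prostaglandins and foreign compounds, and are best known in liver, ovary and other steroid-handling tissues. Thrombopoietin acts on stem cells and megakaryocytes through JAK2 and STAT proteins, and stem cells need this signal to be maintained.

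Expression was given as FPKM, the fragments per kilobase of transcript and per unit of sequencing depth, which is a level per length and can be compared between genes. The depth estimated from the steps between low values was 27.7 to 35.5 M fragments per library, and 11262 to 12374 genes per library reached 1 FPKM. Thpo itself was at or below 0.0426 FPKM in every wild-type library and listed at 0 in every knockout library, so its level in these cells checks little. The stem cell markers were present in all groups, with summed levels of 1852 to 2412 FPKM over 13 genes in untreated wild type, 1585 to 1972 in treated wild type, 561 to 773 in untreated knockout and 1047 to 1755 in treated knockout. Markers of other blood, stromal and endothelial cell types, with megakaryocyte markers left out, were averaged as log2(FPKM + 1). Their mean was 2.61 to 2.80 in untreated and 2.33 to 2.48 in treated wild type. In the knockout it was 5.65 to 6.13 untreated and 3.47 to 3.93 treated. In bulk samples such as these, fewer cells of a type and less RNA per cell cannot be told apart. One library of each wild-type group had Y-linked genes near 0, with Xist at 40.2 FPKM in the untreated and 20.9 FPKM in the treated one. In the other wild-type libraries Xist was at most 0.203 FPKM. All 3 untreated knockout libraries had Y-linked genes high, of which 2 also had Xist above 4 FPKM. All 3 treated knockout libraries had Y-linked genes near 0, with Xist at 20.1 to 41.3 FPKM.

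Of the 8 genes, 3 passed the filter for testing, which asked for 1 FPKM or more in 3 or more libraries, and they are neighbours on the chromosome in the order Akr1c13, Akr1c19, Akr1c12. Akr1c13 (ENSMUSG00000021213, build mm10, chromosome 13, 4191150 to 4205596, plus strand) and Akr1c12 (ENSMUSG00000021211, 4268176 to 4279433, minus strand) form a near-identical pair that points in opposite directions. Akr1c19 (ENSMUSG00000071551, 4228700 to 4252843, plus strand) lies between them. The bases before the starts of the 3 detected genes are shown because the RNA levels of the 3 genes moved in one direction under the agonist, and so that the closeness of the pair can be read directly. They are RefSeq sequences of build GRCm38.p6, 5′ to 3′ on the strand of the gene, taken from the 250 bases before the RefSeq start and ended where an annotated exon of the gene begins. In the first 2 the capitals mark bases that differ from the other gene of the pair or have no partner in the alignment, and in the third they mark a match to TTCNNNGAA, the pattern that STAT proteins bind. The stretches span chr13:4190937-4191149 (plus strand) for Akr1c13, chr13:4279434-4279649 (minus strand) for Akr1c12 and chr13:4233490-4233732 (plus strand) for Akr1c19. The RefSeq start of Akr1c19, base 4233740, is also the start of a shorter GENCODE transcript and lies 5040 bases downstream of the GENCODE gene start at 4228700, so its stretch is within the gene as located above. For Akr1c13 and Akr1c12 the RefSeq start lies 37 and 34 bases downstream of the GENCODE start.
Akr1c13: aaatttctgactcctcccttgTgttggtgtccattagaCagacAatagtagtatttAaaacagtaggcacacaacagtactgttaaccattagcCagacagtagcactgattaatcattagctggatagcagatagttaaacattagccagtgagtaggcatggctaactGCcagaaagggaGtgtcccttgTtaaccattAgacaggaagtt
Akr1c12: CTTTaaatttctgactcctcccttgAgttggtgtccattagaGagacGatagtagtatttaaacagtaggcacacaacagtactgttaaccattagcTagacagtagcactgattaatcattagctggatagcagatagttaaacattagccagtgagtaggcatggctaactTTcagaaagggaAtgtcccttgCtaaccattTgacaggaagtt
Akr1c19: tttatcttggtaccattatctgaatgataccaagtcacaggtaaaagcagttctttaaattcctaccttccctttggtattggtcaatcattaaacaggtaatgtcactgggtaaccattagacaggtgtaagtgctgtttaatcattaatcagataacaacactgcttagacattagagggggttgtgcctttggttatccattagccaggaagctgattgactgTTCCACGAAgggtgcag

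Over the whole 250 bases before the RefSeq start, Akr1c13 and Akr1c12 were identical at 95.5% of 246 aligned bases, so that the pair differs upstream at only a few places. Akr1c19 matched Akr1c13 at 58.6% and Akr1c12 at 58.2% of aligned bases. RefSeq promoter rows were found for 7 of the 8 genes. The STAT pattern TTCNNNGAA, searched on both strands, occurred once before Akr1c19, beginning 24 bases before its RefSeq start, and in none of the other 6 windows, while 7.18% of 27025 promoters of the same length held it. AGATAA, the pattern of GATA factors, occurred 3 times before Akr1c19, at 249, 235 and 98 bases before the RefSeq start, and in none of the other windows, against 10.3% of all promoters. The antioxidant response core TGACNNNGC was in none of the 7 windows and in 10.1% of all promoters. TATAAA was found only before Akr1c6 and in 13% of all promoters. None of these patterns overlapped another in the Akr1c19 window, and a match or its absence describes only these letters.

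All 8 genes have a coding sequence of 969 bases, or 323 residues. The coding sequences of Akr1c12 and Akr1c13 were 96.2% identical, the closest pair, followed by Akr1c6 and Akr1c20 at 92.3%. Akr1c19 was nearest to Akr1c12 and Akr1c13, at 77.8% with each, and the most distant pair was Akr1c12 and Akr1c21 at 71.1%. The 3 detected genes thus stand closest to one another in sequence as well as in place. The same holds for Akr1c6, Akr1c20 and Akr1c21, which were below the filter, with Akr1c21 at 78.7% to Akr1c6 and 78.6% to Akr1c20. Of the 50-base stretches of the Akr1c13 transcript 28.6% also occur in Akr1c12, and of the 150-base stretches, the length of one read, 7.10%. How fragments common to both genes were divided is not given in the sources used here, so the split of FPKM between Akr1c12 and Akr1c13 is uncertain. Akr1c19 shared no 50-base stretch with any other member. It does contain the pseudogene Marcksl1-ps4 on its own strand, which reached at most 2.51 FPKM.

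**Figure D1:**
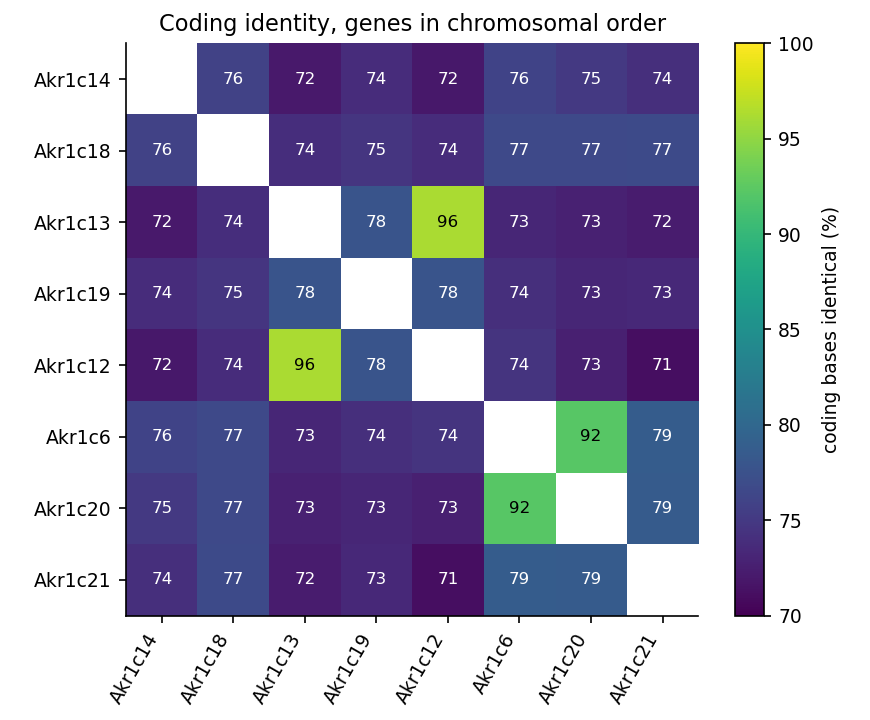
Percent of identical coding bases for each pair of the 8 Akr1c genes, in chromosomal order on both axes, with the colour scale running from 70% to 100%. The block of Akr1c13, Akr1c19 and Akr1c12 holds the closest pair at 96.2%, and Akr1c6 with Akr1c20 forms the other close pair.

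Akr1c13, an oxidoreductase of broad substrate range, was the most abundant member in every library. Its level was 233, 191 and 164 FPKM in untreated wild type and 742, 789 and 855 FPKM in treated wild type. It was 70.1, 59.2 and 54.7 FPKM in untreated knockout and 344, 715 and 593 FPKM in treated knockout. No 2 groups overlapped, and the order of the levels was untreated knockout, untreated wild type, treated knockout, treated wild type, with means of 61.3 ± 7.95, 196 ± 34.5, 551 ± 189 and 795 ± 56.9 FPKM (SD, n = 3). The first treated knockout library was well below the other 2.

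Akr1c12, its near-identical partner, was low in both untreated groups and high in both treated ones. Its level was 6.35, 8.48 and 4.51 FPKM in untreated wild type and 172, 205 and 223 FPKM in treated wild type. In the knockout it was 4.62, 3.25 and 3.64 FPKM untreated and 88.0, 181 and 164 FPKM treated. The treated libraries were all above the untreated ones, whereas the genotypes overlapped both without and with the agonist. The order of the mean levels was 3.84 ± 0.71 in untreated knockout, 6.45 ± 1.99 in untreated wild type, 144 ± 49.6 in treated knockout and 200 ± 25.9 FPKM in treated wild type (SD, n = 3).

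Akr1c19, another oxidoreductase of the family, was expressed at a lower level than both. It was at 3.78, 3.19 and 3.36 FPKM in untreated wild type and at 15.2, 18.8 and 17.9 FPKM in treated wild type. In untreated knockout it was at 0.119, 0.0559 and 1.16 FPKM, with the third library between the other 2 and the wild type, and in treated knockout at 11.02, 16.0 and 14.6 FPKM. The order of the groups was that of Akr1c12, with means of 0.445 ± 0.620, 3.44 ± 0.30, 13.9 ± 2.57 and 17.3 ± 1.85 FPKM (SD, n = 3), and only the 2 treated groups overlapped.

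**Figure D2:**
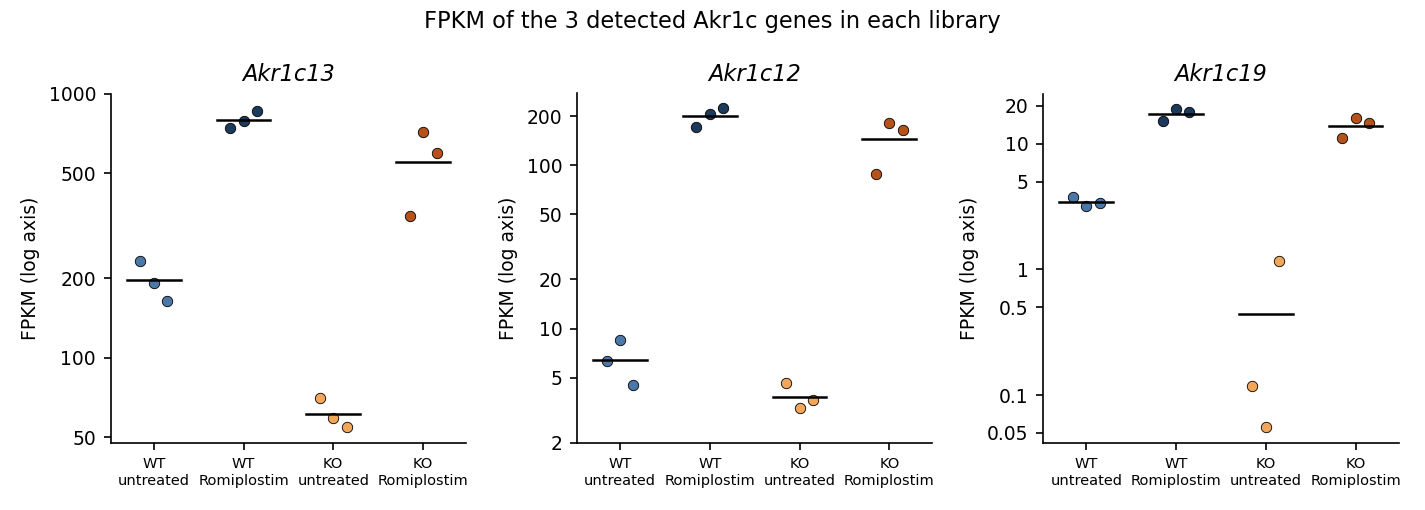
FPKM of Akr1c13, Akr1c12 and Akr1c19 in each of the 12 libraries (points) with the group mean (line), on log axes of different range. The treated libraries lie above the untreated libraries of the same genotype for each gene, and the third untreated knockout library of Akr1c19, at 1.16 FPKM, lies apart from the other 2.

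The other 5 members, which include the classical hydroxysteroid dehydrogenases, were below 1 FPKM in every library. Akr1c14 (ENSMUSG00000033715, 4049011 to 4090688), a 3α-hydroxysteroid dehydrogenase, was above 0 in all 12 libraries, between 0.0786 and 0.566 FPKM. It was at 0.172, 0.466 and 0.226 FPKM in untreated and 0.566, 0.426 and 0.487 FPKM in treated wild type, and at 0.234, 0.0786 and 0.405 FPKM in untreated and 0.383, 0.554 and 0.451 FPKM in treated knockout. These groups overlapped in both genotypes, and every library was above the 0.0261 to 0.0334 FPKM that 3 fragments amount to. With the filter lowered to 0.1 FPKM the wild-type difference was 0.22 ± 0.11 on the log2 scale (SE, limma, Benjamini-Hochberg adjusted p = 0.456) and did not pass. The pseudogene Gm18857 overlaps Akr1c14 on the same strand.

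Akr1c18 (ENSMUSG00000021214, 4132615 to 4150654), the 20α-hydroxysteroid dehydrogenase that inactivates progesterone, was listed at 0 in 6 libraries and reached at most 0.193 FPKM, in the third treated knockout library. For this gene 3 fragments amount to 0.0699 to 0.0897 FPKM, and only that library and the third treated wild-type library, at 0.111 FPKM, were above this. Akr1c21 (ENSMUSG00000021207, 4574075 to 4586541), a further hydroxysteroid dehydrogenase, was listed at 0 in 4 libraries, among them all 3 of the untreated knockout, and reached at most 0.144 FPKM, in the first treated wild-type library. For this gene 3 fragments amount to 0.0562 to 0.0721 FPKM, and only that library and the third untreated wild-type library, at 0.113 FPKM, exceeded this. Akr1c6 (ENSMUSG00000021210, 4434306 to 4457877), a 17β-hydroxysteroid dehydrogenase, was listed at 0 in 11 libraries and at 0.0420 FPKM in the third untreated knockout library. Akr1c20 (ENSMUSG00000054757, 4486849 to 4523345) was listed at 0 in 11 libraries and at 0.0546 FPKM in the third untreated wild-type library. No fold change is given for the 4 of these genes other than Akr1c14, and for them a difference between groups was not detectable at this depth.

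**Figure D3:**
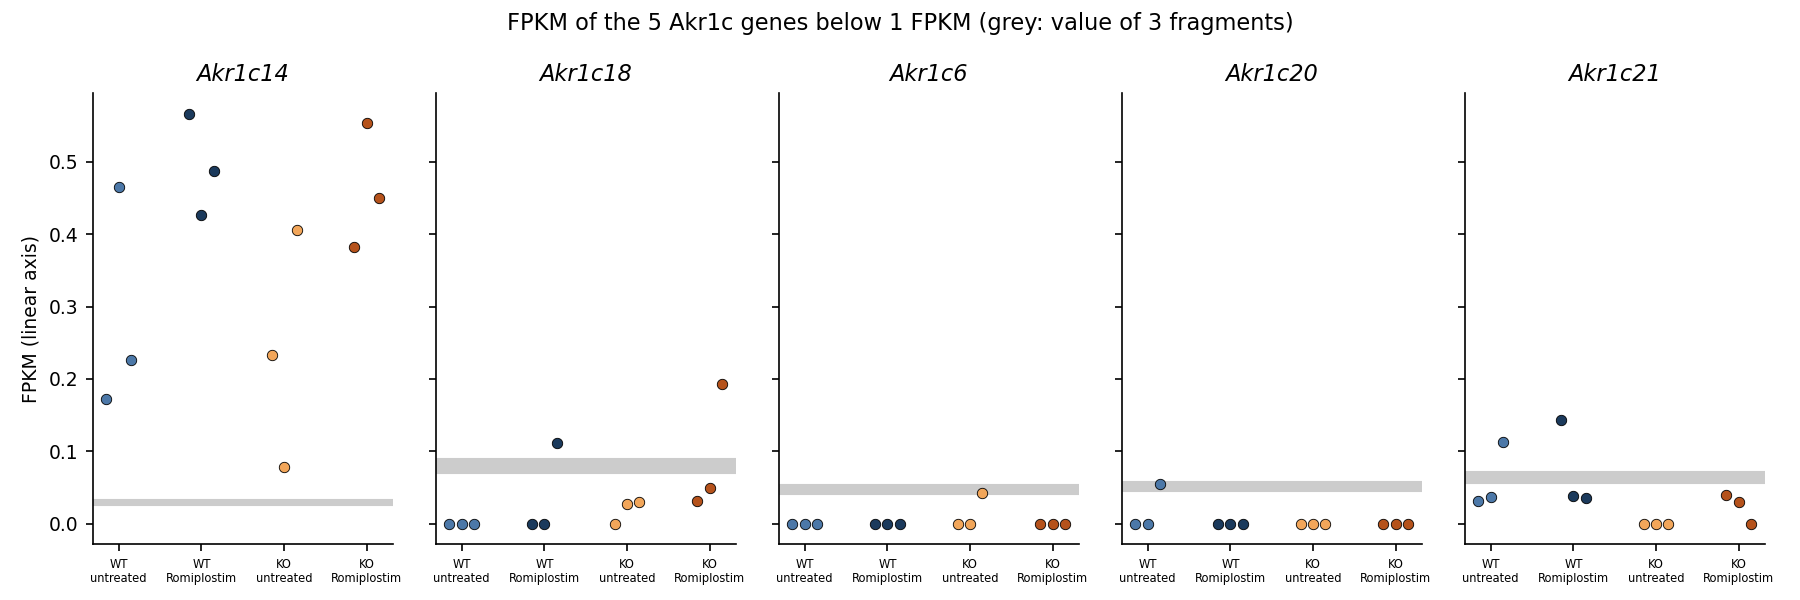
FPKM of the 5 members below the filter in each of the 12 libraries (points), with a grey band for the value of 3 fragments. All values lie under 1 FPKM, only Akr1c14 is above 0 in every library, and the highest Akr1c14 value is 0.566 FPKM.

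The comparison of treated with untreated wild-type cells asks which genes respond to added agonist where the animal's own thrombopoietin is present. All 3 detected members rose, which compares with 0.866% of the 12823 tested genes that rose and 1.84% that changed in either direction. Akr1c12 rose most of all tested genes, by 4.78 ± 0.26 on the log2(FPKM + 1) scale (SE, limma, Benjamini-Hochberg adjusted p = 8.49e-06), or from a mean of 6.45 to 200 FPKM. Akr1c19 rose by 2.04 ± 0.24 (adjusted p = 0.00188) and Akr1c13 by 2.03 ± 0.23 (adjusted p = 0.00146), ranks 33 and 34 among all tested genes in order of rise. Ratios of plain mean FPKM were 31.0 for Akr1c12, 5.02 for Akr1c19 and 4.05 for Akr1c13, since the added 1 understates the change of low genes. For the 3 genes all 3 treated libraries were above all 3 untreated ones, as were those of 10.3% of tested genes. With 0.1 in place of 1 added, Akr1c19 rose by 2.29 with an adjusted p of 0.0608 by limma with Benjamini-Hochberg adjustment and no longer passed the criterion of 0.05. Leaving out the wild-type libraries with low Y-linked genes, 1 of each group, gave 5.08 for Akr1c12, 2.06 for Akr1c13 and 2.08 for Akr1c19, and all 3 still passed. They also passed with the 6 wild-type libraries fitted alone and paired by number (limma, adjusted p = 0.00577 for Akr1c12, 0.00869 for Akr1c19 and 0.0117 for Akr1c13), where 864 genes were called in place of 236. That pairing was taken from the data and not from the labels.

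All cell type markers that passed the test in the same comparison fell. Of all tested genes 0.866% were called higher and 0.975% lower. Of the 13 stem cell markers 0 rose and 1 fell, with a median log2 difference of -0.31. Of 8 erythroid markers 4 fell, with a median of -2.81 and summed levels of 738 to 1232 FPKM untreated against 73.2 to 144 treated. Most of the untreated erythroid sum came from Hba-a1, Hbb-bs and Car1. Epor went the other way, at 9.75 to 12.3 FPKM untreated against 16.5 to 18.7 treated, while Klf1 and Tfrc overlapped. Of 10 macrophage markers 2 fell, with summed levels of 46.1 to 67.5 FPKM untreated against 19.3 to 30.3 treated. Summed levels of T and NK cell markers were higher, at 124 to 168 FPKM untreated against 265 to 308 treated. Their median log2 difference was 1.07 over 7 tested. Summed B cell markers were lower, at 88.2 to 98.7 against 67.6 to 70.6 FPKM, both without overlap of the groups. Most of each sum came from 1 gene. Nkg7 was at 122 to 167 FPKM untreated and 256 to 295 treated, and Cd79b at 64.9 to 74.2 and 56.2 to 58.5 FPKM. The other T and NK cell markers except Cd8a were also higher in every treated library, at 5.22 FPKM or less. The other B cell markers were at 7.76 FPKM or less. None of the B cell, T and NK cell, mast cell, myeloid, megakaryocyte or stromal markers passed the test, and Cd8a and Cma1 were at 0 in every wild-type library. Stromal and endothelial markers were lower as well, at 37.2 to 61.3 FPKM untreated against 32.5 to 34.9 FPKM treated, without overlap. Mast cell and basophil markers were higher in mean log2(FPKM + 1), at 1.33 to 1.48 untreated against 1.69 to 1.87 treated, while their summed levels overlapped. The part of all these marker shifts in the values of Akr1c12, Akr1c13 and Akr1c19 was not tested.

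In the knockout the same 3 genes were higher with the agonist than without it, in all 3 libraries against all 3, as were 15.6% of tested genes. The log2 difference was 4.85 ± 0.26 for Akr1c12, 3.43 ± 0.24 for Akr1c19 and 3.09 ± 0.23 for Akr1c13 (SE), which were ranks 1, 9 and 11 among 12823 genes. These are the values by which the family was chosen, and nothing is read from them. Plain mean FPKM stood in a ratio of 37.6 for Akr1c12 and 8.98 for Akr1c13. For Akr1c19 the difference depended on the third untreated knockout library, without which it was 3.76, and on the number added before the logarithm, with 5.30 at 0.1.

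Cell-type markers shifted beside these values. Of 13 stem cell markers 11 were higher in treated than untreated knockout cells by limma at the same criterion, with a median of 1.39. Lower were 11 of 11 B cell, 10 of 10 macrophage and 9 of 12 myeloid markers. Of all tested genes 10.7% were called higher and 18.9% lower. The summed levels of B cell markers ran from 1827 to 4352 FPKM untreated and from 99.3 to 674 FPKM treated, and those of macrophage markers from 887 to 2677 and from 56.8 to 112 FPKM. None of the 87 markers was at 0 in every untreated knockout library. The part of these shifts in the members' values was not tested, nor was that of the Y-linked genes, which separate the treated from the untreated knockout libraries completely.

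Without the agonist, Akr1c13 and Akr1c19 were lower in knockout than in wild type, with no overlap of the groups, as were 29.0% of tested genes. Akr1c13 differed by -1.65 ± 0.23 and Akr1c19 by -1.70 ± 0.24 on the log2 scale (SE), and plain mean Akr1c13 was 3.20 times as high in wild type. Akr1c12 differed by -0.60 ± 0.26, with its highest knockout library, at 4.62 FPKM, just above the lowest wild-type library, at 4.51 FPKM. Stem cell markers were lower in 11 of 13 cases in the same comparison by limma, beside 23.0% of all tested genes, with a median of -1.71. This shift was close to those of Akr1c13 and Akr1c19, and its part in them was not tested.

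With the agonist in both genotypes the members were closer together. Akr1c13 was lower in knockout in all 3 libraries against all 3, as were 15.2% of tested genes, with a difference of -0.59 ± 0.23, while Akr1c12 at -0.52 ± 0.26 and Akr1c19 at -0.31 ± 0.24 overlapped between genotypes (SE). The knockout values of Akr1c12 and Akr1c13 depended on the first treated knockout library, without which the differences were -0.20 and -0.29. In mean log2(FPKM + 1) that library was lowest of its group in stem cell markers (4.85 against 5.71 and 5.46). It was highest in erythroid markers (7.85 against 6.09 and 6.45). By limma 5 of 8 erythroid, 4 of 10 macrophage and 3 of 11 B cell markers were higher in treated knockout, beside 0.632% of all tested genes. Of 13 stem cell markers 1 was lower. The part of these shifts in the members' values was not tested.

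The agonist effect in knockout exceeded that in wild type by 1.39 ± 0.35 for Akr1c19 and 1.06 ± 0.33 for Akr1c13 on the log2 scale, against 0.07 ± 0.37 for Akr1c12 (SE). The difference for Akr1c12 is within its error, and its sign turned with the libraries used, from -0.22 with only the wild-type libraries high in Y-linked genes to 0.39 without the first treated knockout library. Akr1c13 and Akr1c19, but not Akr1c12, were lower in untreated knockout than in untreated wild type without overlap. These values share libraries with those that chose the family and are not tested.

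**Figure D4:**
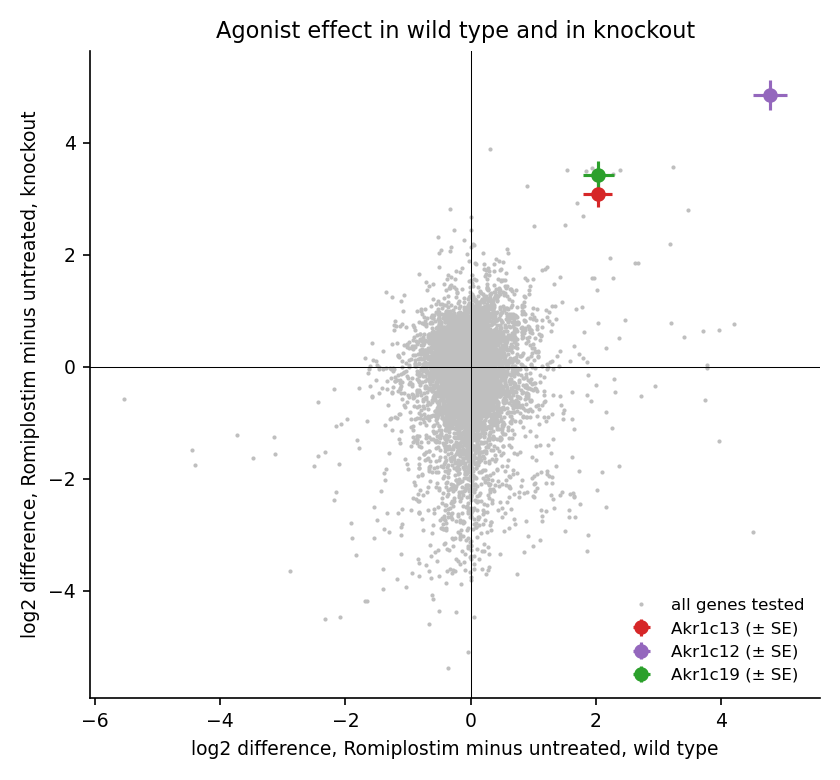
Log2 difference of treated against untreated cells in wild type (x axis) and in knockout (y axis) for the 12823 tested genes (grey) and for Akr1c12, Akr1c13 and Akr1c19 (coloured, bars of 1 SE). Akr1c12 lies at 4.78 and 4.85, while Akr1c13 and Akr1c19 lie higher on the knockout axis than on the wild-type axis.

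The family summed to 243, 203 and 173 FPKM in untreated and 929, 1013 and 1096 FPKM in treated wild type, and to 75.1, 62.6 and 59.9 FPKM in untreated and 444, 913 and 772 FPKM in treated knockout. The exon lengths behind the FPKM are 1261 bases for Akr1c12 and 1434 for Akr1c13, so a fragment assigned to one gene rather than the other changes this sum a little. Akr1c13 made up 94.0% to 95.7% of it in untreated wild type, 91.2% to 94.6% in untreated knockout, 77.9% to 79.8% in treated wild type and 76.8% to 78.3% in treated knockout. The make-up of the family thus differed with treatment in wild type, within the uncertain split between Akr1c12 and Akr1c13. The knockout shares rest on the values by which the family was chosen, and nothing is read from them.

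Akr1c12 stood at 2.73%, 4.43% and 2.74% of the Akr1c13 level in untreated wild type and at 23.1%, 26.0% and 26.0% in treated wild type. The mean rose from 3.30% ± 0.98 to 25.1% ± 1.66 (SD, n = 3) without overlap, with an exact two-sided permutation p of 0.1, the smallest that 3 against 3 libraries can give. In the knockout it stood at 6.59%, 5.49% and 6.66% untreated and at 25.5%, 25.4% and 27.6% treated. The treated knockout libraries spanned 344 to 715 FPKM of Akr1c13, and the first of them was low for both genes. These proportions rest on the uncertain split between Akr1c12 and Akr1c13, and nothing is read from those of the knockout.

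Akr1c19 stood at 1.62%, 1.67% and 2.05% of the Akr1c13 level in untreated and at 2.05%, 2.38% and 2.10% in treated wild type, with the highest untreated and the lowest treated library both at 2.05%. In untreated knockout it was 0.169%, 0.0945% and 2.12%, and in treated knockout 3.20%, 2.24% and 2.46%. The third untreated knockout library again stood near the wild-type values and the first 2 did not.

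**Figure D5:**
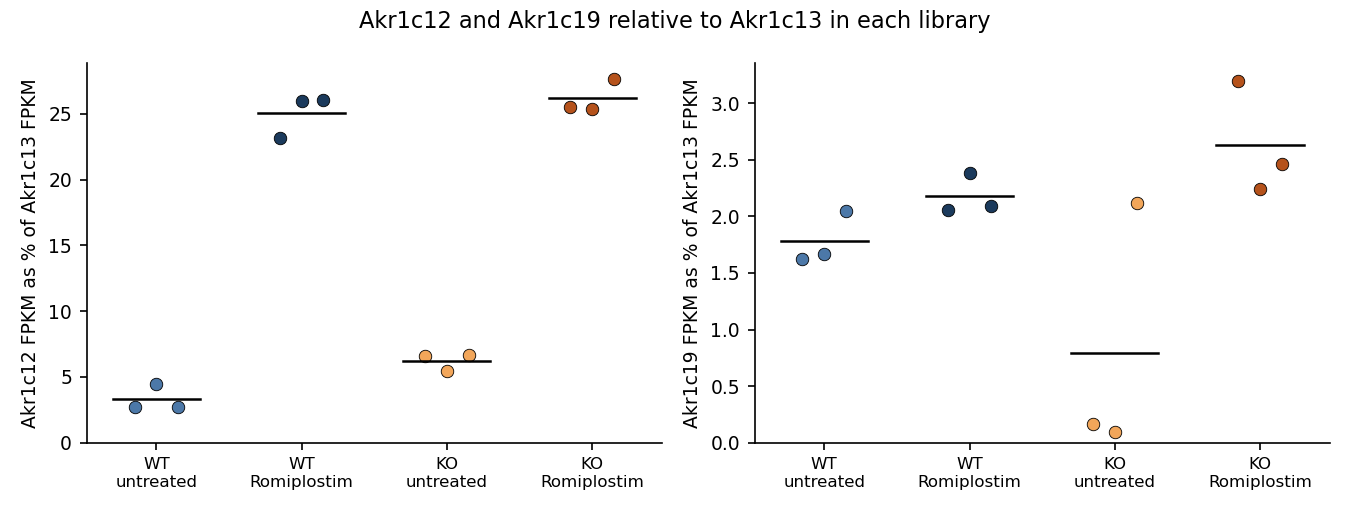
FPKM of Akr1c12 (left) and Akr1c19 (right) as a percent of Akr1c13 FPKM in each library, with the group mean as a line. Akr1c12 lies between 2.73% and 6.66% in the untreated and between 23.1% and 27.6% in the treated libraries, while Akr1c19 lies between 1.62% and 3.20% outside the untreated knockout.

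Over the 12 libraries, which fall into 4 groups, the log2 levels of Akr1c13 and Akr1c19 had a Pearson r of 0.97, those of Akr1c12 and Akr1c13 0.94 and those of Akr1c12 and Akr1c19 0.93. The points share their groups and depth, and these values are a description. The gene outside the family most like Akr1c12 was Stxbp6 (r = 0.99), a syntaxin-binding protein gene, whose mean went from 3.24 to 38.9 FPKM with the agonist in wild type and from 1.07 to 24.4 FPKM in the knockout. It was followed by Ccn3 (0.97), a secreted matricellular protein, Apoa1 (0.96), an apolipoprotein, Id1 (0.96), an inhibitor of helix-loop-helix factors, and Dynlrb2 (0.95), a dynein light chain.

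For Akr1c13 the most alike were Cox4i2 (0.98), an isoform of a respiratory chain subunit, Stxbp6 (0.97), Rhbdl2 (0.97), a membrane protease, Socs2 (0.96), an inhibitor of cytokine signalling, and S100a5 (0.96), a calcium-binding protein. Akr1c19 was most like Cox4i2 (0.99), with means of 7.95 and 33.0 FPKM in wild type and 1.35 and 27.1 FPKM in knockout without and with the agonist. Stxbp6 (0.97), Apol10b, S100a4 and Socs2 (each 0.95) followed. Socs2, which STAT5 is known to induce, had means of 79.5 and 228 FPKM in wild type and 11.3 and 146 FPKM in knockout. Stxbp6 was thus among the 5 most alike genes for each of the 3 members.

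Genes of the surrounding pathways were compared in the same way. The 5 lists of other aldo-keto reductases, prostanoid genes, steroid genes, NRF2 targets and aldehyde or short-chain dehydrogenases held 129 genes, of which 126 were in the table and 89 were tested. In wild type 0 of the 89 rose with the agonist and 6 fell, beside 0.866% and 0.975% of all tested genes, with a median log2 difference of -0.06 against -0.04 for all tested genes. At that background fewer than 1 of the 89 would be called higher, so nothing is read from the count of 0. In level, 10 of the 89 (11.2%) were higher in all 3 treated libraries than in all 3 untreated ones, beside 10.3% of all tested genes. The highest log2 differences, chosen after their values were seen, were those of the thromboxane receptor gene Tbxa2r (0.86, 14.5 to 26.3 FPKM, adjusted p = 0.312, limma), Hsd11b1 (0.78, 2.53 to 5.03 FPKM, adjusted p = 0.513) and Ptgr1, a prostaglandin reductase (0.68, 11.04 to 17.6 FPKM, adjusted p = 0.26). With the 6 wild-type libraries fitted alone and paired by number, 13 of the listed genes were called, 10 lower and 3 higher, the latter Tbxa2r, the prostacyclin receptor gene Ptgir and the retinal reductase gene Dhrs3, beside 3.06% higher and 3.68% lower of all tested genes.

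In the knockout 11 rose and 16 fell, beside 10.7% and 18.9% of all tested genes, and between untreated genotypes 22 were higher and 32 lower in knockout, beside 22.1% and 23.0%. Between treated genotypes 1 was higher and 0 were lower in knockout, beside 0.632% and 0.741%. The agonist effect in knockout differed from that in wild type for 17 of the 89 (19.1%) by limma's interaction term at the same criterion, beside 15.6% of all tested genes.

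None of the 8 other aldo-keto reductases tested passed in wild type with the agonist. Akr1a1, the ubiquitous aldehyde reductase, was at 444 and 508 FPKM without and with it (log2 difference 0.20 ± 0.12, limma with Benjamini-Hochberg adjusted p = 0.544), and Akr1b3, the aldose reductase, at 244 and 238 FPKM (-0.03 ± 0.15, adjusted p = 0.968). In the knockout Akr1e1 rose by 0.70 ± 0.22 (adjusted p = 0.0338, limma) and Akr1b8 fell by 0.87 ± 0.24 (adjusted p = 0.0177, limma).

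Akr1e1 (chromosome 13, 4590750 to 4609174) is also the nearest neighbour of the cluster, and stood at 68.9 and 69.3 FPKM in untreated and treated wild type. Of 10 protein-coding genes within 500 kb of the cluster 5 were tested, Akr1e1, Gdi2, Fam208b, Asb13 and Net1, and none passed in treated against untreated wild type. Their log2 differences there ran from -0.53 for Asb13 (adjusted p = 0.173, limma) to 0.03 for Akr1e1 (adjusted p = 0.987, limma). Calml3, Calm4, Calm5, Tubal3 and Ucn3 did not pass the filter on low values. The rise in wild type passed the test in 3 genes of the cluster and in none of the 5 tested around it. With 0.866% of all tested genes called higher, none would be expected among so few neighbours, so nothing is read from their count.

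Of 21 prostanoid genes tested 0 rose and 2 fell in wild type, Cbr3, a carbonyl reductase, by 1.25 ± 0.22 (adjusted p = 0.0149, limma) and Hpgds, a prostaglandin D synthase, by 1.44 ± 0.29 (adjusted p = 0.0267, limma). Hpgd, which inactivates prostaglandins, averaged 3.15 FPKM without and 0.762 FPKM with the agonist in wild type and did not pass (adjusted p = 0.29, limma), while in the knockout it fell by 2.81 ± 0.44 (adjusted p = 0.000926, limma), from 41.1 to 4.98 FPKM. In the knockout 4 rose and 4 fell, and among those that fell were also Cbr2 (-3.05), Hpgds (-2.21) and the receptor gene Ptger2 (-1.01). Ptgs1, a cyclooxygenase, was at 135 and 132 FPKM in untreated and treated wild type (adjusted p = 0.988, limma), and Ptgs2 did not pass the filter. Cbr1, another carbonyl reductase, was at 99.1 and 98.6 FPKM in wild type and rose by 0.55 ± 0.11 in the knockout (adjusted p = 0.00321, limma), from 60.4 to 89.5 FPKM.

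Between untreated genotypes 6 prostanoid genes were higher and 8 lower in knockout. Hpgd was higher by 3.38 ± 0.44 (adjusted p = 0.000122, limma), Ptgr1 by 1.86 and Ptger2 by 1.21, and Ptger3, a receptor for prostaglandin E, was lower by a log2 difference of -1.53 ± 0.19 (adjusted p = 0.000107, limma). None passed between treated genotypes.

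Of 15 steroid genes tested 0 rose and 1 fell in wild type, the progesterone receptor gene Pgr, by 1.21 ± 0.18 (adjusted p = 0.00704, limma), from 1.71 to 0.143 FPKM. In the knockout Hsd17b10 rose by 0.68 and Srd5a1, a steroid reductase, by 0.49, and Hsd11b1, which activates glucocorticoids, fell by 2.23. Between untreated genotypes 2 were higher and 6 lower in knockout, with Hsd11b1 at 3.46, Hsd17b10 at -1.18 and Hsd3b7 at -1.06 on the log2 scale. None passed between treated genotypes.

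NRF2 is the factor that switches on many detoxifying enzymes, and of 23 of its targets tested 0 rose and 2 fell in wild type. Hmox1, the heme oxygenase, fell by 2.88 ± 0.27 (adjusted p = 0.000286, limma), from 28.1 to 2.83 FPKM, and Gsta4, a glutathione transferase, by 0.78 ± 0.14 (adjusted p = 0.0157, limma). In the knockout 2 rose and 5 fell, with Hmox1 at -3.65, Gclc at -0.88, G6pdx at -0.86 and Gsta4 at 0.93. Nqo1, a quinone reductase, was at 15.3 FPKM in both wild-type groups and at 17.9 and 23.0 FPKM in untreated and treated knockout, and Gclm, a subunit of the enzyme that starts glutathione synthesis, at 158 and 153 and at 185 and 181 FPKM, and neither passed in any comparison. Between untreated genotypes 9 were higher and 9 lower in knockout, with Hmox1 at 3.64, Gclc at 0.98, G6pdx at 1.15, Gsta4 at -1.76 and Gstm2 at -1.94. Hmox1 was the 1 listed gene that passed between treated genotypes, higher in knockout by 2.87 ± 0.27 (adjusted p = 0.000753, limma). Hmox1 is high in macrophages that recycle heme. Macrophage markers fell in 2 of 10 cases in wild type and in 10 of 10 in the knockout with the agonist, and their part in the Hmox1 values was not tested.

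Of 22 aldehyde and short-chain dehydrogenases tested 0 rose and 1 fell in wild type, the retinol dehydrogenase gene Rdh10, by 0.68 ± 0.15 (adjusted p = 0.0415, limma, and 0.0508 with the wild-type libraries alone and paired). In the knockout 2 rose and 5 fell, with Bdh2 at 1.77, Dhrs3 at -1.95, Aldh1a7 at -1.22 and Aldh1b1 at -1.10. Between untreated genotypes 4 were higher and 5 lower, with Bdh2 at -3.15, Aldh1a7 at 2.11, Aldh1a1 at -1.63 and Aldh7a1 at -0.86.

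The count of 6 listed genes called in wild type was 1 without the wild-type libraries low in Y-linked genes, where Hmox1 remained, 2 without any 1 of the 3 treated wild-type libraries, 3 without the second untreated wild-type library and 9 without the first treated knockout library. Hmox1 and Pgr passed in each fit that left out 1 library, and Rdh10 was lost in 16 of 25 alternatives. In the knockout the 27 listed calls became 15 without the third treated knockout library, and the call of Akr1e1 was lost in 10 of 25 alternatives and that of Aldh1b1 in 8. Between treated genotypes the 1 call became 11 without the second treated knockout library and 2 without the first. The 3 members passed in wild type in each fit that left out 1 library.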

How the data were processed

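The authors deposited 1 table of FPKM values, with 35275 Ensembl gene identifiers in 12 library columns, of which 34490 matched a GENCODE M21 symbol. The submitters' processing notes name genome build mm10, TopHat2 and Cufflinks 2.2.1 without their roles, and annotation and filters are not given in the sources used here. Per the labels' protocols a SMARTer low-input cDNA kit was used, whose reads carry no strand. Depth was estimated from the steps of low FPKM values, with 48.7% to 53.6% of values under 50 fragments whole within 0.05 per library. Floors of 3 fragments cover counting error only.

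Values were converted to log2(FPKM + 1), and 12823 genes with at least 1 FPKM in at least 3 libraries were fitted with limma 3.58.1 (R 4.3.3, empirical Bayes with intensity trend) as 4 group means over all 12 libraries. Tests were two-sided, with Benjamini-Hochberg adjustment over all tested genes and 0.05 as the criterion. The fit was tested on simulated data. Coding and upstream sequences were aligned globally with Biopython 1.88. From each list, up to 4 genes with the smallest p past the criterion were named per comparison, together with 11 genes named whatever their values, the 5 most alike genes per detected member and the neighbours within 500 kb. The members and lists were chosen with earlier results of these data known. Same-numbered libraries deviated together in untreated and treated wild type (r of 0.123 to 0.403 in 3 of 3 pairs, against -0.36 to 0.123 in the 6 pairs of unlike number), a pairing taken from the data and not from the labels. The wild-type libraries low in Y-linked genes were the second untreated and the first treated one. The first and second wild-type pairs therefore joined libraries unlike in these genes. In the other 3 comparisons r exceeded 0.1 in 2, 0 and 0 of 3 pairs. Alternatives numbered 26, of which 12 left out 1 library each. The alternative on other-cell markers left out the library highest in them in each knockout group, the third untreated and the second treated one. It was added after seeing the data. So were the alternative without the Y-low wild-type libraries and the fit of the 6 wild-type libraries paired by number.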

Additional observations from a re-analysis of the deposited data

Results flagged for a closer look

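Each group held 3 libraries, too few to look for outlying libraries. For 13 of the 38 named genes tested outside the family the agonist effect in knockout differed from that in wild type by limma's interaction term with Benjamini-Hochberg adjustment, beside 15.6% of all tested genes. Most of these genes were named because they passed in a comparison that enters this term, so the share is not set against the background. The differences, as knockout effect minus wild-type effect on the log2 scale with SE, were 2.29 ± 0.38 for Bdh2 (adjusted p = 0.00405, limma), 1.71 ± 0.19 for Gsta4 (adjusted p = 0.000978) and 1.25 ± 0.31 for Gstm2 (adjusted p = 0.0203). Gsta4 fell in wild type (-0.78) and rose in knockout (0.93). The difference was 1.18 ± 0.23 for Hsd17b10 (adjusted p = 0.00722, limma), 1.08 ± 0.27 for Ptger3 (adjusted p = 0.0225) and 0.95 ± 0.26 for Pgr (adjusted p = 0.0302). It was 0.90 ± 0.27 for Kcnab1 (adjusted p = 0.0455, limma) and 0.56 ± 0.15 for Cbr1 (adjusted p = 0.0294). It was negative for Hsd11b1 at -3.004 ± 0.64 (adjusted p = 0.0114, limma), Dhrs3 at -2.56 ± 0.49 (adjusted p = 0.00725) and Ptgr1 at -1.18 ± 0.36 (adjusted p = 0.0472). It was also negative for Ptger2 at -1.02 ± 0.22 (adjusted p = 0.0123, limma) and G6pdx at -0.82 ± 0.22 (adjusted p = 0.0302). The calls of Kcnab1, Ptgr1, G6pdx and Pgr were lost in 15 of 23, 15 of 24, 13 of 24 and 10 of 23 alternatives, and each was lost without any 1 of the 3 treated wild-type libraries. Those of Cbr1 and Ptger3 were lost in 8 and 7 of 24.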

How the results depend on the processing

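The 3 members called in wild type remained past the criterion under each of the 26 alternatives, except Akr1c19 with 0.1 added in place of 1 (2.29, adjusted p 0.0608 by limma). Over the alternatives the wild-type difference was 4.58 to 5.08 for Akr1c12, 1.91 to 2.21 for Akr1c13 and 1.98 to 2.29 for Akr1c19. With 0.1 added, Akr1c19 differed by 5.30 in treated against untreated knockout, by -3.34 between untreated genotypes and by 3.01 between the 2 agonist effects, and without the third untreated knockout library by 3.76, -2.03 and 1.72.

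Counts of called genes varied more, and the cause was not tested. In wild type, 236 of all genes were called, 122 with a filter of 5 FPKM, 628 with only the 6 libraries compared and 2488 with array weights. Leaving out the other-cell libraries, those highest in other-cell markers within each knockout group, gave 438. Leaving out the Y-low libraries gave 38, and leaving out each library in turn gave 65 to 469. The 6 related genes became 10, 34 and 1 with only the compared libraries, array weights and without the Y-low libraries, and 2 to 9 with 1 library left out. In the knockout, 3797 genes became 2021, 7138 and 1059 with only the compared libraries, array weights and a Y-linked covariate (2368 to 4308 with each library left out), and 27 related genes became 16, 52 and 11 (15 to 34). Between treated genotypes, 176 genes became 326 with 0.1 added, 57 without a filter, 270 after quantile normalization, 57 with only the compared libraries, 4327 with array weights, 28 with the covariate, 1712 without the other-cell libraries and 40 without the Y-low ones (31 to 1559). The 1 related gene became 4, 2, 34 and 16 with 0.1 added, quantile normalization, array weights and without the other-cell libraries (1 to 11). Between untreated genotypes the 5779 calls moved by less than 1.5 times under each alternative. The fits with only the compared libraries give no difference of agonist effects.

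Among the named genes outside the family 164 of 2805 values lost a call, 43 gained one and none reversed a called direction.

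With the replicate number as a block over all 12 libraries 199, 3787, 5788 and 174 genes were called in the 4 comparisons. With the 6 wild-type libraries alone and the block, 864 genes and 13 related genes were called in wild type. Depth limits the differences of Akr1c6, Akr1c18, Akr1c20 and Akr1c21.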
